A study of Mus musculus with 11 samples.

Results

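The complement genes described here are the 34 components, regulators and receptors chosen by gene symbol from the 31280 genes of a liver RNA sequencing table. They comprise the starting proteins of the classical, lectin and alternative routes, C3 and its partners, the terminal components from Hc (the mouse C5 gene) to C9, the fluid and surface regulators, and the receptors of the fragments C3a and C5a. The choice went by symbol alone. By their main cell of origin as textbooks give it, 22 members were counted as hepatocyte-made, 7 as macrophage-made (the 3 C1q chains, Cfp, Fcna, C3ar1 and C5ar1), and 5 as of other or wide source (C7, Cfd, Cd55, Cd59a and Cr1l).

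The livers came from wild-type C57BL/6 mice, all fed for 8 weeks a diet without methionine and choline (MCD), which is used to produce steatohepatitis. Limonin, a limonoid of citrus fruits, was given by gavage at 100 mg/kg for 4 weeks to 6 mice, and water was given to 5 MCD mice. Every mouse was therefore on the deficient diet, no liver from a complete diet was analysed here, and the labels give neither sex nor age. MCD feeding is a model in which mice lose weight and lack the obesity and insulin resistance of the human disease. Each library is 1 liver, so p-values measure the spread between mice.

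Complement is a cascade of plasma proteases and binding proteins that marks surfaces for uptake by phagocytes, releases inflammatory peptides and can perforate membranes. The classical route starts when C1q binds antibody or other ligands and its proteases C1r and C1s cleave C4 and C2. The lectin route starts with mannose-binding lectins and ficolins, and the alternative route is driven by factor B on C3b. All routes meet at C3. Hepatocytes secrete most of these proteins into plasma, whereas C1q and properdin come mainly from macrophages and other myeloid cells.

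Expression was given as FPKM, fragment counts corrected for transcript length and library size, a scale on which genes can be compared per length. The fit used log2(FPKM + 1) for the 10489 genes that reached 1 FPKM in 5 or more of the 11 libraries, and limma with Benjamini-Hochberg adjustment over all of them; a gene was called at an adjusted p under 0.05. The unit carried no counts, and depth could be estimated only roughly. The commonest step among low values gave 15630000 to 19910000 fragments per library, but just 0.79% to 1.86% of the low values lay at that step. The whole table was unbalanced, with 759 genes called higher and 1957 lower, so that 27.9% of the calls were higher. After median-ratio scaling of the libraries the counts were 1466 higher and 1597 lower, so that 47.9% of the calls were higher. Quantile normalization gave 52.9% higher (1813 and 1614 genes), and scaling to equal summed FPKM gave 49.6% (1096 and 1112 genes). The median log2 fold change of all tested genes was -0.07 as deposited and 0.01, 0.03 and 0.03 under these scalings.

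Of the 34 members, 29 were tested and 11 were called, whereas 25.9% of all tested genes were called. The members that rose in limonin livers were hepatocyte-made, and those that fell were the C1q chains. The 8 members called higher were C1ra, C1rl, C3, Hc, Cfb, Cfi, C4bp and Masp2, all hepatocyte-made, against a background of 7.24% of genes called higher. The 3 members called lower were C1qa, C1qb and C1qc, against a background of 18.7% called lower. The same 3 C1q genes were called lower under each of the 3 other scalings. The remaining 18 tested members did not pass. The median log2 fold change was 0.38 over the 22 hepatocyte-made members, -1.05 over the 5 tested macrophage-made members and 0.25 over all 29. C7, Cfd, C3ar1, C5ar1 and Cd55 lay under the expression filter and entered no test.

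**Figure D1:**
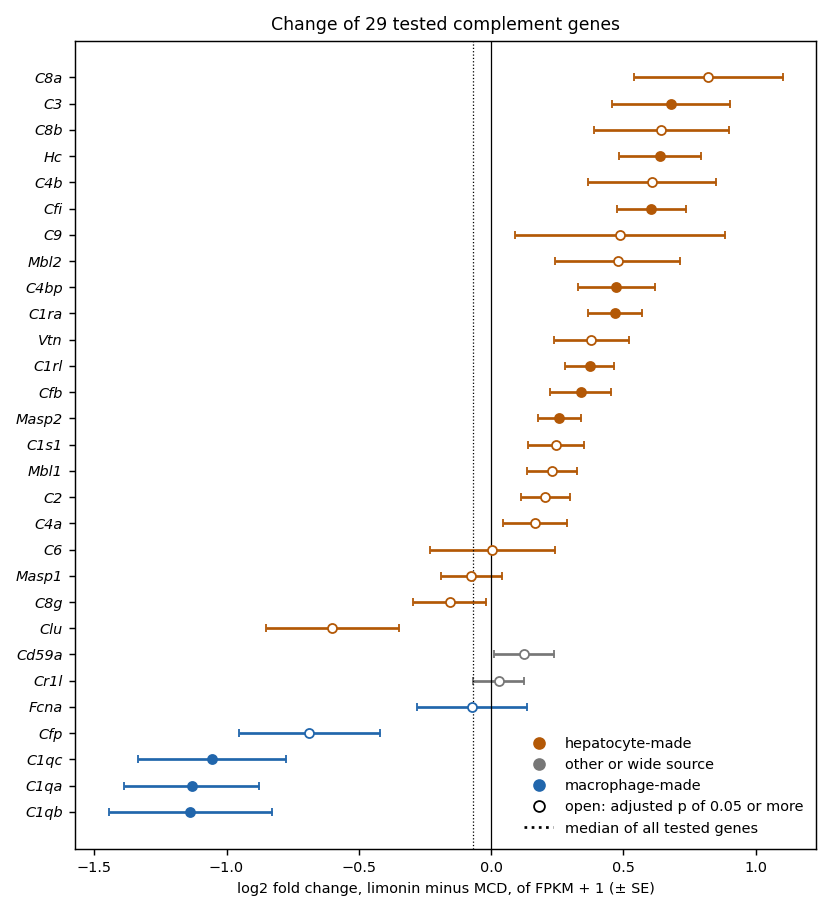
Log2 fold change of limonin over MCD livers (x axis, on the log2(FPKM + 1) scale) with its standard error for the 29 tested members, coloured by main cell of origin; filled points passed an adjusted p of 0.05 and the dotted line marks the median of all tested genes. The C1q chains lie near -1.1, and all 8 filled points to the right are hepatocyte-made.

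C1q, the recognition protein of the classical route, is assembled from the chains of C1qa, C1qb and C1qc, whose genes stand side by side on the minus strand of chromosome 4 (GRCm38, chr4:136880129-136898803). The 250 bases before the transcription start, from RefSeq (GRCm38.p6), are shown for the chains whose promoters were listed, because these neighbouring genes moved together. They lie at chr4:136886201-136886450 for C1qb and chr4:136892915-136893164 for C1qc, both read on the minus strand. Capitals mark a match to GAGGAAG, the core bound by the myeloid factor PU.1, or to its reverse complement.
C1qb: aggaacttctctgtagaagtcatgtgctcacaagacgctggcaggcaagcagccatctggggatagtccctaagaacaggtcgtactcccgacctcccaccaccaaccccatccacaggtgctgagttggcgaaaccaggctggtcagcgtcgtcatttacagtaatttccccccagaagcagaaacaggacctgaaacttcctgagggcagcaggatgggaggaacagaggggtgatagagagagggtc
C1qc: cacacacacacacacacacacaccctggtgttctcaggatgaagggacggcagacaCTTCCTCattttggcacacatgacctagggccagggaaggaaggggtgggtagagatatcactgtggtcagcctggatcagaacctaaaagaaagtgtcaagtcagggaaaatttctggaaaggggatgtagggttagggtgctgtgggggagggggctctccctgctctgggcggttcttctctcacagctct
The C1qc match lay on the opposite strand, 194 bases before the RefSeq start, and C1qb held no exact match. In the GRCm38 annotation used for gene positions, C1qc starts at chr4:136893065, inside the stretch shown. The match lies upstream of that start as well. GAGGAAG occurs in 10.4% of 27025 mouse promoters of the same length. It was found in 2 of 6 macrophage-made members (C1qc and Fcna) and 0 of 15 hepatocyte-made members with a listed promoter.

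C1qa stood at 28.8, 33.3 and 41.2 FPKM in limonin livers (lowest, median and highest), against 54.5, 125, 75.8, 41.4 and 121 FPKM in MCD livers 1 to 5. Every limonin value lay below every MCD value, although MCD 4 and the highest limonin liver were nearly level. Such a separation towards lower values occurred in 8.33% of all tested genes. C1qa fell by 1.13 ± 0.26 on the log2 scale (SE, adjusted p = 0.00901, limma).

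C1qb had 25.2, 34.1 and 45.2 FPKM in limonin livers (lowest, median and highest), against 55.9, 124, 68.6, 36.8 and 137 FPKM in MCD livers 1 to 5. The groups overlapped through MCD 4, and 4 of 6 limonin livers lay below all MCD livers. C1qb fell by 1.14 ± 0.31 on the log2 scale (SE, adjusted p = 0.0205, limma).

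C1qc had 11.7, 15.3 and 20.5 FPKM in limonin livers (lowest, median and highest), against 22.1, 50.2, 34.8, 18.4 and 59.6 FPKM in MCD livers 1 to 5. MCD 4 was again the MCD liver that fell within the limonin range. C1qc fell by 1.05 ± 0.28 on the log2 scale (SE, adjusted p = 0.0190, limma). Without MCD 2 the C1qb and C1qc calls were lost, at adjusted p = 0.0565 and 0.0556, and C1qb was also lost without limonin 2. C1qa was called without each of the 11 livers in turn.

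**Figure D2:**
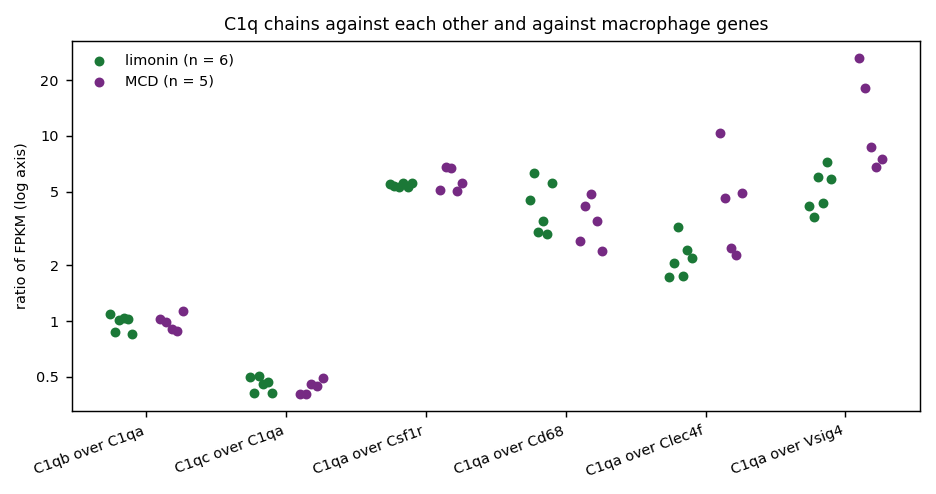
Ratio of FPKM values within each liver (y axis, log scale, no unit) for chains of C1q and for C1qa over macrophage genes, with 1 point per liver, limonin left of MCD. C1qb over C1qa stayed between 0.855 and 1.13 in all 11 livers, whereas C1qa over Vsig4 ran from 3.64 to 26.5.

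The chains kept nearly fixed proportions from liver to liver. C1qb over C1qa was 0.855 to 1.098 in limonin livers and 0.889 to 1.13 in MCD livers. C1qc over C1qa was 0.407 to 0.505 in limonin livers and 0.403 to 0.492 in MCD livers, so both ratios overlapped. The C1q level itself ran from 41.4 to 125 FPKM for C1qa among the MCD livers, and its coefficient of variation was 13.8% in limonin livers against 45.6% in MCD livers. The order of the MCD livers was MCD 4 lowest, then MCD 1 and MCD 3, with MCD 2 and MCD 5 highest, and it was the same for C1qa, C1qb and C1qc except that MCD 2 and MCD 5 changed places for C1qa.

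C1q was set beside macrophage genes of the same livers. C1qa over Csf1r, the receptor for macrophage colony-stimulating factor, was 5.31 to 5.58 in limonin livers and 5.05 to 6.79 in MCD livers. C1qa over Clec4f, a Kupffer cell lectin, was 1.73 to 3.21 in limonin livers and 2.28 to 10.4 in MCD livers. C1qa over Vsig4, a Kupffer cell receptor for C3b, was 3.64 to 7.19 in limonin livers and 6.80 to 26.5 in MCD livers. C1qa over Cd68, a lysosomal protein of macrophages, was 2.96 to 6.30 in limonin livers and 2.40 to 4.86 in MCD livers. C1qa over Lyz2, a lysozyme gene of myeloid cells, was 0.542 to 1.09 in limonin livers and 0.388 to 1.12 in MCD livers. For Adgre1, another marker of the Kupffer cell list, the ratio was 17.7 to 25.1 in limonin livers and 21.6 to 48.6 in MCD livers. All of these ranges overlapped. The median was lower in limonin livers for the ratios to Csf1r, Adgre1, Clec4f and Vsig4 and higher for those to Cd68 and Lyz2. Of 8 tested Kupffer cell markers 1 was called higher (Slc40a1) and 1 lower (Csf1r), with a summed level of 66.8 to 101 FPKM in limonin livers and 38.6 to 194 FPKM in MCD livers. Of 9 tested markers of recruited macrophages 8 were called lower. The full list summed to 90.1 to 206 FPKM in limonin livers and 181 to 723 FPKM in MCD livers. Among these 8, Itgax and Ly6c2 passed the filter mainly through MCD livers, so their place among the tested genes is tied to that direction. In bulk liver, fewer cells of a type and less RNA per cell cannot be told apart, and the part of macrophage number in the C1q difference was not tested.

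The other macrophage-made members did not pass the test or were too low for it. Cfp, which encodes properdin, the stabiliser of the alternative convertase, averaged 7.38 ± 1.54 FPKM in limonin livers and 13.6 ± 6.63 FPKM in MCD livers (SD, n = 6 and 5). Its log2 fold change was -0.69 ± 0.27 (SE, adjusted p = 0.0755, limma). It was called lower without MCD 1 or without MCD 4, the 2 MCD livers in which it stood near 7 FPKM, at adjusted p = 0.0340 and 0.0285. Cfp over C1qa was 0.163 to 0.281 in limonin livers and 0.130 to 0.179 in MCD livers. Fcna, the plasma ficolin that mouse macrophages make, averaged 21.7 ± 4.83 FPKM in limonin livers and 23.3 ± 6.62 FPKM in MCD livers. Its log2 fold change was -0.07 (adjusted p = 0.827), unlike the C1q chains in size, though that difference between genes was not tested.

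C3ar1, the receptor of C3a, had 0.308, 0.633 and 0.925 FPKM in limonin livers (lowest, median and highest), against 1.85, 1.87, 1.16, 0.874 and 4.25 FPKM in MCD livers 1 to 5. Only MCD 4 fell within the limonin range. C5ar1, the receptor of C5a, had 0.323, 0.565 and 0.719 FPKM in limonin livers (lowest, median and highest), against 1.35, 1.76, 0.878, 0.759 and 3.25 FPKM in MCD livers 1 to 5. No limonin liver reached the lowest MCD liver for C5ar1. With no filter on low values, C3ar1 had a log2 fold change of -0.80 (adjusted p = 0.0617, limma) and C5ar1 of -0.67 (adjusted p = 0.0672, limma), neither past the threshold. In the authors' deposited table both had a q under 0.05, at 0.000315 for C3ar1 and 0.00138 for C5ar1. Neutrophils also carry these receptors and make properdin. Of 4 tested neutrophil markers 3 were called lower, with a summed level of 4.38 to 9.37 FPKM in limonin livers and 5.80 to 38.8 FPKM in MCD livers. Csf3r and Retnlg, 2 of these 3, passed the filter mainly through MCD livers. The defining markers Ly6g, Ngp and Camp were under 0.5 FPKM in every liver. Their part in the receptor values was not tested. Of 8 markers of stellate cells and fibroblasts 6 were called lower, and none of the 5 mesothelial markers reached the filter.

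**Figure D3:**
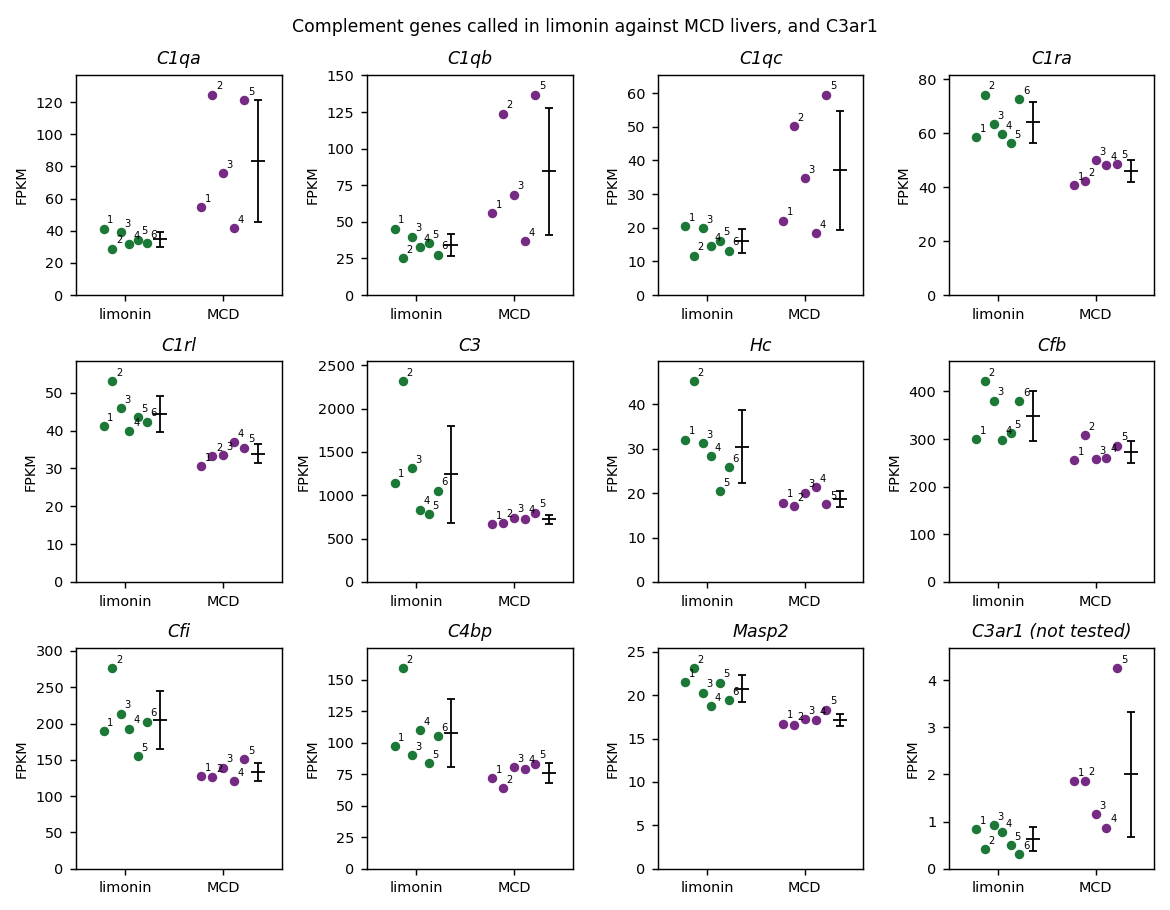
FPKM (y axis of each panel, linear, from 0) in each liver for the 11 called members and C3ar1, limonin left of MCD, with points numbered by replicate and a bar at the mean ± SD. C1qa, lower in limonin livers, and C1ra, C1rl, Cfi, C4bp and Masp2, higher in them, show no overlap between groups. Limonin 2 is the highest limonin point for C3 at 2314 FPKM.

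Of the C1r and C1s type protease genes among the members, C1ra and C1rl were called higher in limonin livers and C1s1 was not called. C1ra, the mouse C1r that cleaves C1s, had 56.2, 61.4 and 74.2 FPKM in limonin livers (lowest, median and highest), against 40.7, 42.1, 49.95, 48.2 and 48.6 FPKM in MCD livers 1 to 5. All 6 limonin livers lay above all 5 MCD livers, a separation towards higher values found in 2.97% of all tested genes. C1ra rose by 0.47 ± 0.10 on the log2 scale (SE, adjusted p = 0.00646, limma).

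C1rl, a C1r-like protease gene next to C1ra on chromosome 6, had 39.9, 42.9 and 53.0 FPKM in limonin livers (lowest, median and highest), against 30.5, 33.2, 33.4, 36.9 and 35.5 FPKM in MCD livers 1 to 5. The groups did not overlap. C1rl rose by 0.37 ± 0.09 on the log2 scale (SE, adjusted p = 0.0120, limma). Both calls held without each liver in turn.

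C1s1, the protease that cleaves C4 and C2, had the highest mean of the classical starting members over all 11 livers, although C1qa and C1qb averaged more in MCD livers. C1s1 had 63.9, 80.97 and 85.3 FPKM in limonin livers (lowest, median and highest), against 58.9, 62.6, 68.1, 75.3 and 59.4 FPKM in MCD livers 1 to 5. The groups overlapped, with 4 of 6 limonin livers above all MCD livers. The log2 fold change of 0.25 ± 0.11 did not pass (SE, adjusted p = 0.0991, limma), but passed without limonin 5 (adjusted p = 0.0419) and after median-ratio scaling (adjusted p = 0.0432). Reads of C1ra may be shared with its copy C1rb, since 34.5% of the 100-base windows of C1ra transcripts also occur in C1rb, and 6.87% of those of C1s1 occur in C1s2. Genes on the opposite strand overlap C1s1 and C1rl, as also C2, Hc, C7, C8a, C8g, Masp1, Masp2, Fcna and Cd55, and the sources used here do not give whether counting used strand.

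C3, the protein at which all routes meet, had the highest mean of the members over all 11 livers, although Vtn averaged more in MCD livers. C3 had 782, 1099 and 2314 FPKM in limonin livers (lowest, median and highest), against 664, 684, 739, 729.6 and 798 FPKM in MCD livers 1 to 5. Limonin 5 alone lay within the MCD range, and limonin 2 stood far above the rest. C3 rose by 0.68 ± 0.22 on the log2 scale (SE, adjusted p = 0.0395, limma). The call was near the threshold and was lost in 8 of 11 fits without 1 liver, namely without any single MCD liver or without limonin 1, 3 or 6, with adjusted p up to 0.0912. It was also lost after quantile normalization.

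The C3 promoter (RefSeq, GRCm38.p6, chr17:57228137-57228386, minus strand) is shown with capitals at a match to TTNNGCAA or its reverse complement, a form of the site of the liver and acute phase factors C/EBP.
C3: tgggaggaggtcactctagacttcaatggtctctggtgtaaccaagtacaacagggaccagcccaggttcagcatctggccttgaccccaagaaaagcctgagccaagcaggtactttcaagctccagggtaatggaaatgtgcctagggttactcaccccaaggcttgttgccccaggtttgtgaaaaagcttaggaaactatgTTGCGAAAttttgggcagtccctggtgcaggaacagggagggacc
The match lay on the opposite strand, 45 bases before the start. TTNNGCAA occurs in 9.55% of all promoters of this length and in 4 of the 15 hepatocyte-made members with a listed promoter (C1s1, C1rl, C3 and C9).

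C4b and C4a lie near C2 and Cfb on chromosome 17, and C4 supplies the fragment that joins C2 in the classical and lectin convertase. C4a, which in mice is also known as sex-limited protein, is very close to C4b in sequence. The GRCm38 annotation lists C4a as a processed transcript, not as protein-coding. Over 5206 aligned bases, C4b-201 coding sequence and C4a-207 were 96.2% identical, and 15.2% of the 100-base windows of C4b transcripts also occur in C4a. The 60 bases of C4b coding sequence from base 2705 to base 2764, shown with the C4a bases aligned to them (GRCm38 transcripts), hold 13 differences, in capitals. This stretch was picked as the gap-free window of 60 bases with the most differences. It is therefore less alike than the aligned sequences as a whole.
C4b: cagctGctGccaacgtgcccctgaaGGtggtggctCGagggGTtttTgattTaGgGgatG
C4a: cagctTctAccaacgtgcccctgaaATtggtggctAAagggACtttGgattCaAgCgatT
C4b had 51.1, 72.4 and 158 FPKM in limonin livers (lowest, median and highest), against 44.6, 65.0, 48.9, 46.3 and 55.7 FPKM in MCD livers 1 to 5. Only 3 of 6 limonin livers lay above all MCD livers. The log2 fold change of 0.61 ± 0.24 did not pass (SE, adjusted p = 0.0795, limma), but passed without limonin 4 (adjusted p = 0.0408) and after median-ratio scaling. C4a had 1.32, 1.66 and 2.24 FPKM in limonin livers (lowest, median and highest), against 1.45, 1.68, 0.842, 1.48 and 1.58 FPKM in MCD livers 1 to 5. The C4a groups overlapped, with a log2 fold change of 0.17 ± 0.12 (SE, adjusted p = 0.325, limma). C4a over C4b was 0.0141 to 0.0297 in limonin livers and 0.0172 to 0.0326 in MCD livers, and since reads of both genes can be misassigned the C4a level is uncertain. C2, the protease partner of C4, averaged 24.5 ± 2.44 FPKM in limonin livers and 21.1 ± 1.71 FPKM in MCD livers, with a log2 fold change of 0.20 (adjusted p = 0.113).

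Cfb, factor B, is the protease of the alternative convertase. It had 298.7, 346 and 421 FPKM in limonin livers (lowest, median and highest), against 255, 308, 258, 261 and 286 FPKM in MCD livers 1 to 5. MCD 2 overlapped the lower limonin livers, and 4 of 6 limonin livers lay above all MCD livers. Cfb rose by 0.34 ± 0.12 on the log2 scale (SE, adjusted p = 0.0445, limma). The call was lost in 8 of 11 fits without 1 liver, namely without any single MCD liver or without limonin 2, 3 or 6, with adjusted p up to 0.0962. A gene on the same strand, Gm20547, overlaps Cfb and C2, so their reads cannot be told apart from its own. Cfd, the adipose-made protease that cleaves factor B, was listed at 0 in limonin 1, 4 and 6 and had 0.407, 0.153 and 0.395 FPKM in limonin 2, 3 and 5, against 0.310, 0.236, 0.251, 0.327 and 0.498 FPKM in MCD livers 1 to 5. The adipocyte genes Adipoq and Plin1 were under 0.1 FPKM in every liver, and neither of the 2 tested adipocyte markers, Car3 and Fabp4, was called; their list summed to 132 to 273 FPKM in limonin livers and 112 to 249 FPKM in MCD livers, nearly all of it Car3.

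Among the members of the lectin route, 1 was called. Masp2, the protease that cleaves C4 and C2 after lectin binding, had 18.7, 20.8 and 23.1 FPKM in limonin livers (lowest, median and highest), against 16.7, 16.5, 17.2, 17.1 and 18.3 FPKM in MCD livers 1 to 5. The groups did not overlap, although the gap between limonin 4 and MCD 5 was small. Masp2 rose by 0.26 ± 0.08 on the log2 scale (SE, adjusted p = 0.0326, limma). The call was lost without MCD 1, 2, 3 or 4 or without limonin 2, with adjusted p up to 0.0856.

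The promoter of Masp2 (RefSeq, GRCm38.p6, chr4:148602294-148602543, plus strand) is shown with capitals at a match to TTCNNNGAA, the palindromic site of STAT factors, which start the liver response to interleukin-6.
Masp2: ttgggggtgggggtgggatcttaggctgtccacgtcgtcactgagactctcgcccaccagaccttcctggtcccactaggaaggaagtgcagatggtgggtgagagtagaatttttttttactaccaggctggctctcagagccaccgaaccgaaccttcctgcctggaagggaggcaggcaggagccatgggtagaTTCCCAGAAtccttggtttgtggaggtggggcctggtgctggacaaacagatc
The match began 53 bases before the start. TTCNNNGAA occurs in 7.18% of all promoters and in 2 of 15 hepatocyte-made members (C8a and Masp2). The gene overlapping Masp2 on the opposite strand is Tardbp.

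Mbl1, 1 of the mouse mannose-binding lectins and the lectin-route member of highest mean, had 76.8, 82.6 and 96.97 FPKM in limonin livers (lowest, median and highest), against 64.4, 75.3, 71.4, 77.3 and 75.5 FPKM in MCD livers 1 to 5. MCD 4 alone overlapped limonin livers, through limonin 4. The log2 fold change of 0.23 ± 0.09 did not pass (SE, adjusted p = 0.0821, limma). Mbl2, the other lectin, averaged 43.3 ± 13.5 FPKM in limonin livers and 30.9 ± 9.92 FPKM in MCD livers, with a log2 fold change of 0.48 (adjusted p = 0.150). Masp1, the protease that activates Masp2, averaged 10.7 ± 1.62 FPKM in limonin livers and 11.3 ± 1.32 FPKM in MCD livers, with a log2 fold change of -0.07 (adjusted p = 0.662).

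The terminal route begins with Hc, which encodes C5. Hc had 20.5, 29.8 and 45.2 FPKM in limonin livers (lowest, median and highest), against 17.8, 17.03, 20.1, 21.3 and 17.6 FPKM in MCD livers 1 to 5. Limonin 5 alone fell within the MCD range. Hc rose by 0.64 ± 0.15 on the log2 scale (SE, adjusted p = 0.0106, limma) and was called without each liver in turn.

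The Hc promoter (RefSeq, GRCm38.p6, chr2:35061413-35061662, minus strand) is shown with capitals at a match to the palindromic site of the hepatocyte factor HNF1.
Hc: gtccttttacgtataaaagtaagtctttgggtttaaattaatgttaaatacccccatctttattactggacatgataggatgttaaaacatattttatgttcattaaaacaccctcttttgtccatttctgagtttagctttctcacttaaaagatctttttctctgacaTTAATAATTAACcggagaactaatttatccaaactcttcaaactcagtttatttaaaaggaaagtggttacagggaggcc
The match lay on the opposite strand, 80 bases before the RefSeq start. In the GRCm38 annotation used for gene positions, Hc starts at chr2:35061438, inside the stretch shown. The motif is rare, occurring in 17 of 27025 promoters (0.0629%), and Hc was the only member with a listed promoter among the hepatocyte-made group that held it. Of the other motifs searched on both strands, that of interferon regulatory factors occurs in 3.04% of all promoters and that of NF-kappaB in 0.337%, and neither was found in the 15 hepatocyte-made or 6 macrophage-made members with a listed promoter. RefSeq promoters were listed for 26 of 34 members and 8 of 11 called members, all but C1qa, Cfb and Cfi, and no motif match of the 6 kinds was found in C1ra or C4bp.

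The fold changes of the C8 subunits differed in sign, and none passed. C8g, the lipocalin-like chain and the terminal member of highest mean, had 69.4, 105 and 124 FPKM in limonin livers (lowest, median and highest), against 105, 108, 115, 137 and 94.97 FPKM in MCD livers 1 to 5. The groups overlapped, with a log2 fold change of -0.16 ± 0.14 (SE, adjusted p = 0.427, limma). C8a, the alpha chain, averaged 21.7 ± 9.58 FPKM in limonin livers and 10.9 ± 1.31 FPKM in MCD livers (SD, n = 6 and 5). Its log2 fold change of 0.82 ± 0.28 lay just short of the threshold (SE, adjusted p = 0.0504, limma). Limonin 5, at 8.38 FPKM, was below all MCD livers while the other 5 were above all of them, and without it C8a passed (adjusted p = 0.00374), as it did after median-ratio scaling (adjusted p = 0.0213). C8b, the beta chain and neighbour of C8a on chromosome 4, averaged 14.9 ± 7.57 FPKM in limonin livers and 8.75 ± 2.34 FPKM in MCD livers, with a log2 fold change of 0.64 (adjusted p = 0.0788). C8g over C8a was 1.93 to 14.8 in limonin livers and 7.83 to 13.7 in MCD livers.

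C9, which polymerises into the membrane pore, was the most uneven of the tested members within the limonin livers. It stood at 22.1, 29.8 and 12.7 FPKM in limonin 1 to 3 and at 6.22, 5.30 and 8.28 FPKM in limonin 4 to 6, against 9.26, 9.35, 8.33, 5.33 and 8.57 FPKM in MCD livers 1 to 5. Limonin 1 to 3 thus lay above all MCD livers, limonin 4 and 6 within the MCD range, and limonin 5 just below it. The log2 fold change was 0.49 ± 0.40 (SE, adjusted p = 0.393, limma). C6, a component of the same pore, averaged 3.52 ± 0.522 FPKM in limonin livers and 3.81 ± 1.85 FPKM in MCD livers, with a log2 fold change of 0.00 (adjusted p = 0.992). C7 averaged 0.268 ± 0.0857 FPKM in limonin livers and 0.235 ± 0.125 FPKM in MCD livers.

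Among the fluid regulators, Cfi encodes factor I, the protease that inactivates C3b and C4b. Cfi had 155, 198 and 276 FPKM in limonin livers (lowest, median and highest), against 128, 126, 139, 120.4 and 151 FPKM in MCD livers 1 to 5. The groups did not overlap, with limonin 5 closest to MCD 5. Cfi rose by 0.61 ± 0.13 on the log2 scale (SE, adjusted p = 0.00600, limma), and was called in every alternative fit that was run.

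C4bp, the binding protein through which factor I cleaves C4b, had 83.7, 101 and 159 FPKM in limonin livers (lowest, median and highest), against 71.7, 64.0, 80.5, 79.3 and 83.5 FPKM in MCD livers 1 to 5. The groups were separated by a narrow gap between limonin 5 and MCD 5. C4bp rose by 0.47 ± 0.15 on the log2 scale (SE, adjusted p = 0.0297, limma). The call was lost without MCD 1 or 2 or without limonin 4 or 6, with adjusted p up to 0.0888.

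Vtn and Clu encode vitronectin and clusterin, which keep the terminal complex from inserting into membranes. Vtn, the fluid regulator of highest mean, had 824, 1023 and 1508 FPKM in limonin livers (lowest, median and highest), against 703, 891, 847, 764 and 863 FPKM in MCD livers 1 to 5. Limonin 4 alone lay within the MCD range, and without it Vtn passed (adjusted p = 0.0401). Over all livers the log2 fold change of 0.38 ± 0.14 did not pass (SE, adjusted p = 0.0644, limma). Clu averaged 291 ± 82.2 FPKM in limonin livers and 451 ± 158 FPKM in MCD livers (SD, n = 6 and 5). Its log2 fold change of -0.60 ± 0.25 was the lowest of the hepatocyte-made members and did not pass (SE, adjusted p = 0.0953, limma), but passed without MCD 4 (adjusted p = 0.0165).

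The surface regulators showed no call. Cd59a, which blocks C9 and had the highest mean of them, stood at 13.99, 15.9 and 17.8 FPKM in limonin livers (lowest, median and highest), against 11.4, 13.99, 16.7, 17.5 and 13.3 FPKM in MCD livers 1 to 5. The groups overlapped, with a log2 fold change of 0.12 ± 0.11 (SE, adjusted p = 0.436, limma). Cr1l, the rodent regulator also called Crry, averaged 3.26 ± 0.342 FPKM in limonin livers and 3.19 ± 0.381 FPKM in MCD livers, with a log2 fold change of 0.03 (adjusted p = 0.859). Cd55, which speeds the decay of convertases, averaged 0.838 ± 0.393 FPKM in limonin livers and 0.782 ± 0.168 FPKM in MCD livers.

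**Figure D4:**
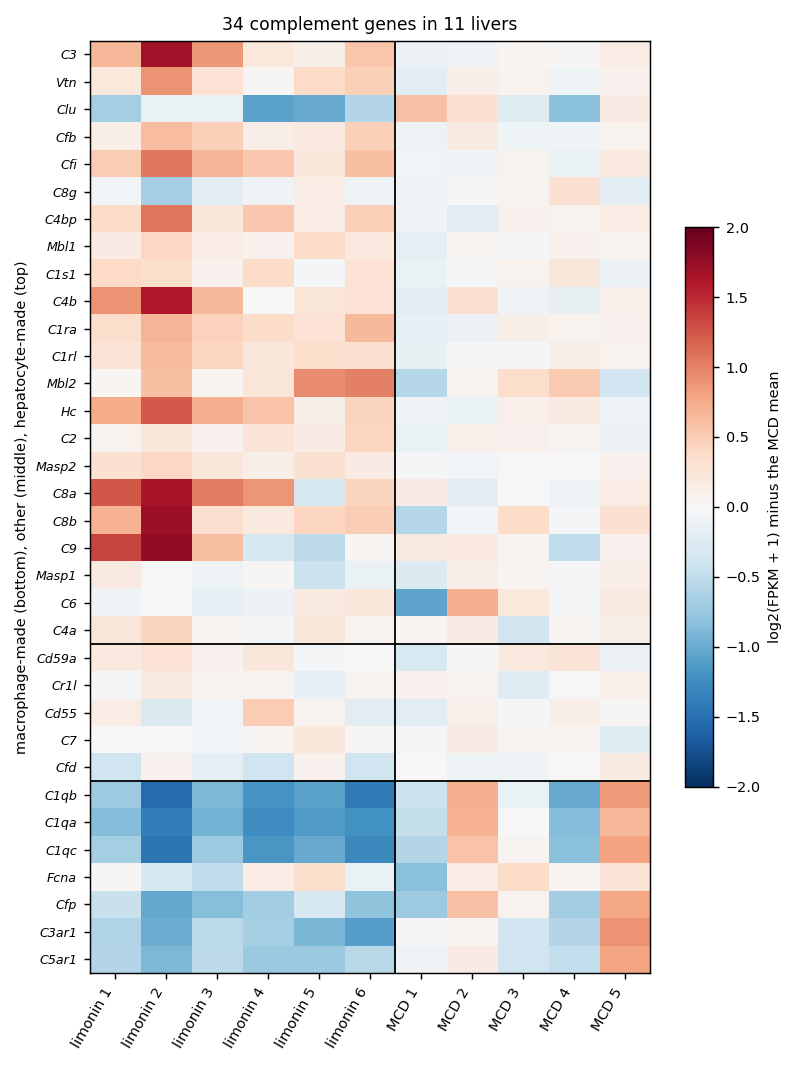
Log2(FPKM + 1) of each of the 34 members in each of the 11 livers, minus the mean of the MCD livers of that gene. Rows are ordered by main cell of origin and then by mean FPKM, and columns have limonin left of MCD. Red is above and blue below the MCD mean. Limonin 2 is the reddest column for the hepatocyte-made genes, and the C1q rows are blue in limonin livers.

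Per liver, the 22 hepatocyte-made members had a mean log2(FPKM + 1) of 5.55 to 6.18 in limonin livers and 5.29 to 5.499 in MCD livers, which did not overlap. The 5 tested macrophage-made members had a mean of 4.05 to 4.64 in limonin livers and 4.51 to 5.85 in MCD livers, which overlapped. The first mean minus the second was 1.005 to 2.13 in limonin livers and -0.36 to 0.91 in MCD livers. Of the 22 hepatocyte-made members, 8 (36.4%) were called higher and none lower, and 19 had a positive log2 fold change. Scaled by median ratio 11 were higher, at equal summed FPKM 12, and with quantile normalization 8, with 0 lower in each. At an unadjusted p under 0.05, 15 were higher and 1 lower, and by the authors' deposited q 15 were higher and 0 lower. Of the 5 tested macrophage-made members none was called higher, none was higher at an unadjusted p under 0.05, and the authors' deposited q gave 5 of 7 lower and 0 higher. By the same q of the authors' deposited table, 8.57% of all 31280 genes were higher and 7.44% lower. That base includes the many genes under the expression filter, whereas all 22 hepatocyte-made members passed it.

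**Figure D5:**
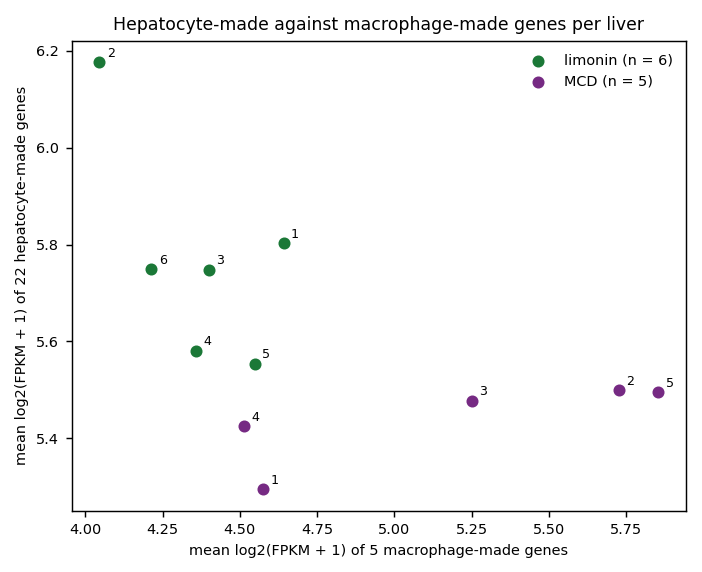
Mean log2(FPKM + 1) of the 22 hepatocyte-made members (y axis) against that of the 5 tested macrophage-made members (x axis), with 1 numbered point per liver. Limonin livers lie above all MCD livers, with limonin 2 highest at 6.18 and farthest left at 4.05.

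Limonin 2 carried the highest value of the 6 limonin livers in 16 of the 22 hepatocyte-made members. The summed FPKM of the members was 3174 to 5966 in limonin livers and 2909 to 3548 in MCD livers. C3 alone made up 23.3% to 38.8% of that sum in limonin livers and 19.6% to 25.1% in MCD livers. Of 12 hepatocyte markers that are not complement genes, 5 were called higher (Alb, Fga, Fgb, Cps1 and Hnf4a) and 0 lower, with a summed level of 42869 to 61852 FPKM in limonin livers and 41851 to 52550 FPKM in MCD livers. Of 12 acute phase genes 3 were called higher (Lbp, Itih4 and Fga) and 0 lower, with a summed level of 7365 to 23621 FPKM in limonin livers and 7097 to 9784 FPKM in MCD livers. That sum was highest in limonin 2 and limonin 1, at 23621 and 15532 FPKM, whereas limonin 4 to 6, at 7365 to 8702 FPKM, lay within the MCD range. The part of either in the 8 higher calls was not tested.

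Complement genes outside the 34 were drawn from a list of 31, of which 30 had a row and Cfhr4 was not analysed here. Of 19 that were tested, 6 (31.6%) were called higher and 4 (21.1%) lower, with a median log2 fold change of 0.21. Of all tested genes, 7.24% were called higher and 18.7% lower, so the share called lower was near that of all genes. The 6 were Cfhr3 (0.45, adjusted p = 0.0383), C1rb (0.57, adjusted p = 0.0405), Cpn2 of carboxypeptidase N, which trims C3a and C5a (0.54, adjusted p = 0.0498), Cpb2, another plasma carboxypeptidase (0.54, adjusted p = 0.0344), and the pentraxins Crp (0.56, adjusted p = 0.0253) and Apcs (0.59, adjusted p = 0.0327). Each of these 6 calls was lost in 5 to 7 of 11 limma fits without 1 liver, with adjusted p up to 0.119. Every one was lost without MCD 1 and without MCD 2. The GRCm38 annotation lists Cfhr3 as an unprocessed pseudogene. The 4 called lower were Itgax (-1.08, adjusted p = 0.0147) and Itgb2 (-1.14, adjusted p = 0.0262), which encode chains of the C3 fragment receptor CR4, Cd93, once named a C1q receptor (-0.40, adjusted p = 0.0126), and Colec11, a lectin of the lectin route (-0.45, adjusted p = 0.0179). The Itgb2 call was lost without MCD 1 or 2 or without limonin 2 or 6, and the Colec11 call was lost after median-ratio scaling and at equal summed FPKM. Itgax and Cd93 passed the filter mainly through MCD livers, so their place among the tested genes is tied to that direction.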

How the data were processed

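Liver RNA from 11 mice (6 limonin, 5 MCD) was sequenced, and the authors deposited 1 table of FPKM values per gene and liver. Per the submitters' processing notes the tools included cutadapt 1.9, HISAT2 2.0.4 and StringTie 1.3.4d, and the build named is GRCh38, a human one, although the gene identifiers are mouse; 31191 of 31280 were found in a GRCm38 annotation, which gave the positions. Library preparation marked strand, per the labels' protocols, but its use in counting is not stated in any source used here. The same table holds, per the file headers, the authors' fold change as a ratio, the log2 of that ratio, a p-value and a q-value; the deposited ratio is limonin mean over MCD mean, and no source used here names the test behind the p-value.

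From the FPKM values, log2(FPKM + 1) was fitted with limma 3.58.1 in R 4.3.3 (trend and robust variance, no covariates, two-sided), for genes at 1 FPKM or more in at least 5 libraries, with Benjamini-Hochberg adjustment at 0.05. Fold changes on this scale understate those of genes near 1 FPKM. Library depth is a rough estimate from steps among low FPKM values. Values were read per liver by column name, with no library pair identical. Members, the split by source, the other complement genes, the markers and the motifs were chosen with earlier results of these data known. Called members, the member of highest mean over all livers in each role, the C1q chains, C3, C4a and C4b are given by the lowest, median and highest limonin liver and by each MCD liver; C5ar1, C9 and Cfd were added after their values were seen. Promoters are the 250 bases before the start in RefSeq's GRCm38.p6 table. Alternatives changed the filter, pseudocount, scaling, variance model, pairing and the livers included.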

Additional observations from a re-analysis of the deposited data

Results flagged for a closer look

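Single livers stood apart from the rest of their group in 5 of the 68 sets of values examined (34 members in each group), by the gap to the nearest liver relative to the range of the group. Chance alone marks about 1 in 20 such sets. In limonin 2, C3 stood at 2314 FPKM, against 1313 FPKM in the nearest limonin liver. In the same liver C8b stood at 30.1 FPKM, with the nearest at 14.4 FPKM, and C4bp at 159 FPKM, with the nearest at 110.2 FPKM. Without limonin 2 the calls of C3 and C4bp were kept. Among MCD livers, C9 was lowest in MCD 4 at 5.33 FPKM, with the nearest at 8.33 FPKM, and C4a was lowest in MCD 3 at 0.842 FPKM, with the nearest at 1.45 FPKM.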

How the results depend on the processing

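Genes called higher numbered 759 and lower 1957. The higher count was 412 with no filter, 1466 after median-ratio scaling, 1813 after quantile normalization, 1347 without limonin 5 and 6, 486 without MCD 4 and 5, and 2682 by the authors' q. The lower count was 900 with a filter at 5 FPKM and 1112 at equal summed FPKM. Leaving out MCD 2 and 5, the livers of highest C1q, was added after seeing the data and gave 102 higher and 477 lower. Members called higher (8) or lower (3) became 4 and 1 with no filter, 4 higher without MCD 4 and 5, 1 and 1 without MCD 2 and 5, and 15 and 5 by the authors' q. Hepatocyte-made members called higher became 4, 4, 1 and 15 in those settings, with 1 called lower (Clu) without MCD 4 and 5. Macrophage-made members called lower became 1, 1 and 5 with no filter, without MCD 2 and 5 and by the authors' q. Other complement genes (6 higher, 4 lower) became 1 and 2 with no filter, 3 and 1 at 5 FPKM, 2 higher without MCD 4 and 5, 0 and 0 without MCD 2 and 5, and 11 higher by the authors' q. Leaving out 1 liver in turn gave 328 to 1097 genes higher and 1080 to 2134 lower, 4 to 10 members higher and 1 to 5 lower, 4 to 10 hepatocyte-made higher and 0 to 1 lower, 1 to 4 macrophage-made lower and 0 to 0 higher, and 0 to 6 other complement genes higher and 3 to 4 lower. Members called higher were 4 without MCD 1 or MCD 2, and 5 without MCD 3, MCD 4 or limonin 6; members called lower were 1 without MCD 2 and 5 without MCD 4. No replicate block is implied by the labels, since same-numbered livers correlated at -0.235 to 0.204 in their deviations from the group means and 1 of 5 limonin livers correlated best with the MCD liver of its own number; a fit with the replicate block over pairs 1 to 5, which drops limonin 6, gave 362 genes higher and 895 lower, 3 members higher (all hepatocyte-made) and 1 lower (macrophage-made), and 3 and 1 other complement genes. No called member changed direction in any setting, over 275 values of which 217 stayed past the threshold, and 58 did not. C1qa and Cfi were called in every setting. The cause of the moved counts was not tested, beyond fewer genes at 5 FPKM and fewer livers where livers were left out. C7, Cfd, Cd55 and the receptors missed the filter at 1 FPKM, and whether depth limits them was not tested.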

Other observations

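Close copies of complement proteases and regulators, too low for the test, were looked at after their values were seen. C1s2, a copy of C1s1, had 0.439 to 0.889 FPKM in limonin livers and 0.0343 to 0.313 FPKM in MCD livers, so that all 6 limonin livers lay above all 5 MCD livers. Cd55b, a copy of Cd55, had 0.118 to 0.906 FPKM in limonin livers and 0 to 0.138 FPKM in MCD livers, which overlapped. Cd59b, a copy of Cd59a, had 0.395 to 1.07 FPKM in limonin livers and 0.552 to 1.22 FPKM in MCD livers, which overlapped too. Among complement genes outside the members that were too low for the test, only C1s2 showed no overlap. How often genes under the expression filter separate in this way was not computed. Because C1s2 shares 8.78% and Cd55b shares 12.1% of their 100-base windows with their copies, reads may be misassigned between them.

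C3 was also set against Fga, the alpha chain of fibrinogen and another hepatocyte product of the acute phase. C3 over Fga was 1.08 to 1.91 in limonin livers and 2.004 to 2.91 in MCD livers, without overlap. C3 was thus lower relative to Fga in limonin livers while higher in its own FPKM. Of all the ratios computed here, only this ratio showed no overlap. Fga itself was called higher, with a log2 fold change of 1.38 (adjusted p = 0.0103, limma). C3 over Alb was 0.0269 to 0.104 in limonin livers and 0.0356 to 0.0486 in MCD livers, which overlapped. Mbl2 over Mbl1 was 0.373 to 0.723 in limonin livers and 0.298 to 0.557 in MCD livers. These ratios were not tested.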
